A study of Mus musculus with 10 samples.

Results

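Wnt ligands, secreted proteins that act against them and relatives of these proteins were followed in the lactating mammary gland of QSi5 and CBA mice. The set comprised 10 of the 12393 genes that the arrays named by a single symbol. They were the ligands Wnt4, Wnt5a, Wnt5b and Wnt6, the frizzled-related proteins Sfrp1, Sfrp2 and Frzb, the Wnt inhibitory factor Wif1, and Dkk3 and Dkkl1 of the Dickkopf group. The genes were chosen by name, and every probeset whose platform annotation gave exactly 1 of these symbols was taken, which gave 17 probesets. A probeset is a group of short probes on the array that are summarised into 1 value.

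Inguinal glands were taken at lactation day 9 from 5 QSi5 and 5 CBA females in the study's comparison of a highly fecund strain with an unselected one, with 1 Affymetrix array per mouse. QSi5 was inbred from Quackenbush-Swiss stock while being bred for fecundity, both in litter size and in how soon the next litter followed, and CBA stands for the inbred CBA/CaH strain. No treatment, transgene or deletion was applied, and strain was the only difference between the groups that the labels give, so each group represents 1 inbred line. In both strains 3 mice were hybridised to MOE430 2.0 chips and 2 mice to MOE430A 2.0 chips, although the methods name the smaller chip for all mice. According to the methods the right gland was used, and according to the series record it was the fourth inguinal gland, with weaning forced after 9 days. The females had not littered before and were mated to males of their own strain, and their age on the day of collection is not stated beyond their age at mating. The RNA came from whole tissue, in which fewer cells of a type and less RNA per cell cannot be told apart.

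Wnt proteins are lipid-modified glycoproteins that act over short distances. They bind Frizzled receptors, either with the co-receptors Lrp5 and Lrp6, which stabilises β-catenin and activates TCF/LEF target genes, or through other co-receptors that act on cell polarity and calcium. Frizzled-related proteins and Wif1 bind Wnt ligands outside the cell, whereas the classical Dickkopf proteins bind Lrp5 and Lrp6. In the mammary gland Wnt4 acts downstream of progesterone in ductal side-branching, and Wnt signalling is linked to stem cells and branching more than to milk secretion itself.

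TCF/LEF factors carry the β-catenin signal to the genome, so the promoters of the set were searched for their core motif. RefSeq promoter windows (GRCm38.p6) of 300 bases, with 250 before and 50 after a transcription start, were given for 7 of the 10 genes, in 9 windows. The letters CTTTGAA and CTTTGAT were searched on both strands. A match was present in 1 of the 9 windows, against 8.65% of all 32851 windows. It lay in front of 1 of the annotated starts of Wnt5b, on the minus strand at chr6:119449451-119449457, with 64 bases between it and the start. The match is shown with 10 bases on either side (chr6:119449441-119449467) because Wnt5b is also the ligand with the widest spread between mice below, and capitals mark the motif.
Wnt5b: gtaagtctctCTTTGATctgctccctg
The windows of Wnt4, Wnt6, Sfrp2, Frzb, Wif1 and Dkkl1 did not hold these letters, which says nothing about sites elsewhere.

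Values are log2 intensities from RMA, and a level can be compared between mice on the same probeset but not between probesets. A probeset was tested where its mean in CBA or in QSi5 mice was above 20 once unlogged, which is 4.32 in log2. Of the 17 probesets, 8 passed this minimum and stood for 6 genes, namely Wnt4, Wnt5b, Wnt6, Sfrp1 (3 probesets), Sfrp2 and Dkkl1. The other 9 lay below it, and 4 genes (Wnt5a, Dkk3, Frzb and Wif1) had no probeset above it. Wnt4 passed only through QSi5 mice (20.1 against 17.8 unlogged) and Wnt5b only through CBA mice (22.0 against 15.3), so both were measured close to this minimum. Differences are given as QSi5 minus CBA, with limma's standard error (SE) and a p-value adjusted by Benjamini-Hochberg over all 11412 probesets tested.

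Of the 8 tested probesets, 2 differed between the strains at an adjusted p under 0.05 in limma, against 2.94% of all probesets tested. Sfrp2 was higher in QSi5 glands (1.44% of all probesets were called higher) and Dkkl1 was lower (1.51% were called lower). No tested ligand probeset passed. There was no overlap between strains for 2 of the 8, again Sfrp2 and Dkkl1, against 5.14% of all tested probesets. An unadjusted limma p under 0.05 was found for 3 of the 8, against 15.1%. Beside Sfrp2 and Dkkl1 these held 1422602_a_at of Wnt5b, which was tested only through CBA mice. The study singled out Dkkl1, Sfrp2 and Wnt4 from these same arrays, Wnt4 from a subset of the data, so these counts are not independent of that choice. It also measured Dkkl1 and Wnt4 by quantitative RT-PCR, which was not examined here.

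**Figure D1:**
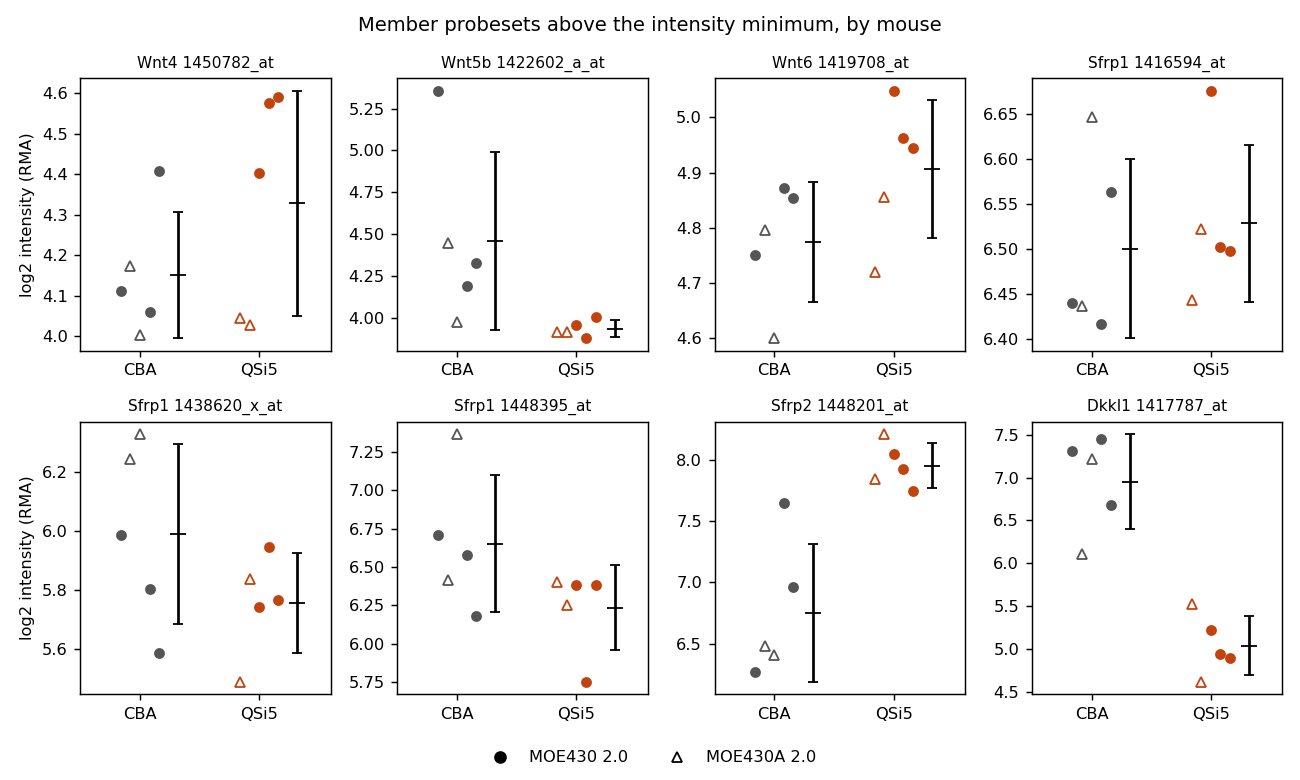
Log2 RMA intensity (vertical axes, which differ between panels) of the 8 probesets above the intensity minimum in each of 5 CBA (grey) and 5 QSi5 (orange) mice, with circles for MOE430 2.0 and open triangles for MOE430A 2.0 arrays. The black marks are the strain mean with SD. The strains are apart for Sfrp2 and Dkkl1 and overlap in the other 6 panels.

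Among the ligands, Wnt4, the ligand of progesterone-driven side-branching, read 4.11, 4.17, 4.003, 4.06 and 4.41 in CBA replicates 1 to 5 and 4.04, 4.03, 4.40, 4.58 and 4.59 in QSi5 replicates 1 to 5. The strains overlapped, with QSi5 replicates 4 and 5 above every CBA mouse and QSi5 replicates 1 and 2 within the CBA range. The difference was 0.18 (SE 0.14, 95% interval -0.13 to 0.48, n = 5 mice per strain), or 1.13-fold, with a limma adjusted p of 0.612. It was 0.16, 0.12 and 0.11 without QSi5 replicates 3, 4 and 5 in turn, and in each of these cases the probeset lay under the intensity minimum and was not tested. The QSi5 mice with the lower readings, replicates 1 and 2, were those hybridised to MOE430A 2.0. Within MOE430 2.0 the difference was 0.33 and within MOE430A 2.0 it was -0.05. The change in difference between chip types was 0.38 (SE 0.21, limma interaction adjusted p = 0.903). This interaction passed after adjustment for 0% of all tested probesets and had an unadjusted p under 0.05 for 5.43%. In a fit with both terms, Wnt4 read 0.30 higher on MOE430 2.0 than on MOE430A 2.0 (SE 0.12, limma adjusted p = 0.233), and 0.526% of all probesets differed between the chips. In a fit blocked by chip type the strain difference was again 0.18 (SE 0.11, limma adjusted p = 0.474).

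Wnt5b, a ligand that acts mostly without β-catenin, was carried by a pair of probesets. On 1422602_a_at, whose suffix marks probes shared by transcripts of the same gene, CBA mice read 5.36, 4.45, 3.98, 4.19 and 4.33 and QSi5 mice 3.92, 3.92, 3.96, 3.88 and 4.01. QSi5 mice were tightly grouped (SD 0.05) and CBA mice were spread (SD 0.53), with CBA replicate 1 far above the rest and CBA replicate 3 within the QSi5 range. The difference was -0.52 (SE 0.21, 95% interval -0.98 to -0.07) with an unadjusted p of 0.028 and an adjusted p of 0.257 in limma. Without CBA replicate 1 it was -0.30, and the probeset then fell under the intensity minimum. On 1439373_x_at, which may also detect related transcripts, CBA mice read 4.36, 3.95, 3.32, 3.07 and 3.02 and QSi5 mice 2.97, 2.79, 2.92, 2.70 and 2.52. Every QSi5 mouse lay below every CBA mouse there, a separation that 1.76% of the probesets under the minimum showed. When all 22626 probesets were fitted, which called 1.48%, the difference of 1439373_x_at was -0.76 (SE 0.23) with an unadjusted p of 0.00713 and an adjusted p of 0.187 in limma, and it was -0.56 without CBA replicate 1.

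Wnt5a, the related ligand best known for growth inhibition and cell polarity in the mammary gland, lay below the minimum on both of its probesets. On 1448818_at CBA mice read 2.88, 3.37, 3.88, 2.95 and 2.63 and QSi5 mice 2.62, 2.89, 2.88, 2.72 and 2.75. On 1436791_at CBA mice read 2.89, 3.20, 3.72, 2.91 and 2.86 and QSi5 mice 2.79, 2.82, 3.05, 2.96 and 2.90. CBA replicate 3 had the highest reading of all mice on both probesets and CBA replicate 2 the next highest, while the other CBA mice lay within or near the QSi5 range, CBA replicate 4 being above every QSi5 mouse on 1448818_at. The differences were -0.37 and -0.21 (limma over all probesets, adjusted p = 0.534 and 0.69), and without CBA replicate 3 they were -0.19 and -0.06. CBA replicates 2 and 3 were the CBA mice on MOE430A 2.0. Within that chip type the differences of 1448818_at and 1436791_at were -0.87 and -0.65, against -0.04 and 0.08 within MOE430 2.0, and the part of the chip type was not tested for these dim probesets.

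Wnt6, an epithelial ligand, differed little between mice, with 4.75, 4.79, 4.60, 4.87 and 4.85 in CBA mice and 4.72, 4.86, 5.05, 4.96 and 4.94 in QSi5 mice. QSi5 replicates 3, 4 and 5 lay above all CBA mice, and QSi5 replicates 1 and 2, those on MOE430A 2.0, overlapped them. The strain difference was 0.16 within MOE430 2.0 and 0.09 within MOE430A 2.0. In a fit with strain and chip type, Wnt6 read 0.16 higher on MOE430 2.0 (SE 0.09, limma adjusted p = 0.375). Over all mice its strain difference of 0.13 (SE 0.10, 95% interval -0.08 to 0.35) did not pass (limma adjusted p = 0.593). Its residual SD was low for these arrays, at the 6.99th percentile of all tested probesets.

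Sfrp2, a frizzled-related protein made mainly by stromal cells in many tissues, was the member that was higher in QSi5 mice. The CBA mice read 6.27, 6.48, 6.41, 7.65 and 6.97 and the QSi5 mice 7.84, 8.21, 8.05, 7.92 and 7.74. All QSi5 mice lay above all CBA mice, although CBA replicate 4 came just below QSi5 replicate 5, the lowest of its strain, and CBA mice were more spread (SD 0.56 against 0.18). The difference was 1.20 (SE 0.23, 95% interval 0.70 to 1.70, n = 5 mice per strain), or 2.30-fold, with a limma adjusted p of 0.0131. The call was lost with ordinary variances in place of limma's moderated ones (adjusted p = 0.0783, with 1.8% of all probesets called). It ranked 181st of the 11412 probesets by p and 133rd by size. The difference was 0.94 within MOE430 2.0 and 1.58 within MOE430A 2.0, and it did not pass on the MOE430 2.0 arrays alone (limma adjusted p = 0.294), where CBA replicates 4 and 5 were measured and 1.27% of all probesets were called. Without CBA replicate 4, a setting that called 3.63% of all probesets, it was 1.42 (limma adjusted p = 0.000412).

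No tested fibroblast marker was called beside Sfrp2, where 2.7% of all genes were called. Of the 12 listed fibroblast genes, 8 were tested, such as Col1a1, Col3a1 and Dcn, and their median difference was 0.01. None had an unadjusted limma p under 0.05, against 14.9% of all genes. With 8 genes, neither count lies far from these shares, and the part of stromal cells in the Sfrp2 difference was not tested. Their mean level, as the deviation from the mean of all arrays, ran from -0.36 to 0.42 in CBA mice and from -0.50 to 0.44 in QSi5 mice. CBA replicate 4, the CBA mouse with the highest Sfrp2, had a fibroblast level of 0.01.

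Sfrp1, the frizzled-related protein most studied in mammary epithelium, had 4 probesets that did not move together. On 1416594_at CBA mice read 6.44, 6.44, 6.65, 6.42 and 6.56 and QSi5 mice 6.44, 6.52, 6.68, 6.50 and 6.50. The strains overlapped almost completely, with a difference of 0.03 (SE 0.09, 95% interval -0.17 to 0.23, limma adjusted p = 0.92), and the residual SD was at the 2.47th percentile of all tested probesets. This difference turned to -0.0089 without QSi5 replicate 3 and to -0.058 on the MOE430A 2.0 arrays alone.

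The other tested probesets of Sfrp1 had negative differences that did not pass. Of these, 1438620_x_at may also detect related transcripts. On 1448395_at CBA mice read 6.71, 6.42, 7.36, 6.58 and 6.18 and QSi5 mice 6.40, 6.25, 6.38, 5.76 and 6.38, with a difference of -0.41 (SE 0.21, 95% interval -0.86 to 0.03, limma adjusted p = 0.375). CBA replicate 3 stood high and QSi5 replicate 4 stood low on this probeset, and without CBA replicate 3 the difference was -0.24. On 1438620_x_at CBA mice read 5.99, 6.24, 6.33, 5.80 and 5.59 and QSi5 mice 5.49, 5.84, 5.74, 5.94 and 5.76, with a difference of -0.23 (SE 0.15, 95% interval -0.56 to 0.09, limma adjusted p = 0.517). For 1438620_x_at the difference was 0.024 within MOE430 2.0 and -0.62 within MOE430A 2.0, and this contrast of 0.65 (SE 0.23, unadjusted p = 0.0196) did not pass after adjustment (limma interaction adjusted p = 0.886). The fourth probeset, 1460187_at, lay below the minimum, between 2.27 and 3.09 in CBA mice and between 2.54 and 2.67 in QSi5 mice.

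Frzb (also known as Sfrp3) and Wif1 were below the minimum in every mouse. The probesets of Frzb had strain means of 2.97 in CBA and 2.94 in QSi5 mice on 1416658_at, and of 2.51 and 2.43 on 1448424_at. Wif1, which binds Wnt ligands through its WIF domain, had strain means of 2.04 and 2.14. In the fit over all probesets the differences of Frzb and Wif1 lay between -0.09 and 0.09 (limma adjusted p from 0.765 to 0.941).

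Whether Dkkl1 acts on Wnt signalling in this gland was not tested. Dkkl1, also called soggy, is a secreted protein related to Dkk3 and best known from the testis and the sperm acrosome. Its probeset read 7.31, 6.11, 7.21, 7.45 and 6.68 in CBA mice and 5.53, 4.62, 5.22, 4.94 and 4.90 in QSi5 mice. Every QSi5 mouse lay below every CBA mouse, and the lowest CBA mouse, replicate 2, was still above QSi5 replicate 1, the highest of its strain. The log2 difference was -1.91 (SE 0.25, 95% interval -2.45 to -1.36, n = 5 mice per strain), so that Dkkl1 was 3.76-fold higher in CBA glands (limma adjusted p = 0.000917). It ranked 75th of the 11412 probesets by p and 55th by size. The difference was -2.13 within MOE430 2.0 and -1.58 within MOE430A 2.0, which holds CBA replicate 2 and QSi5 replicate 1, and with 2 mice per strain it did not pass on MOE430A 2.0 alone (limma adjusted p = 0.256), where 0.566% of all probesets were called.

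Both called genes also varied widely between mice of the same strain. The residual SD of Dkkl1 was at the 92.5th percentile of all tested probesets and that of Sfrp2 at the 89.8th. Neither difference was shown to depend on chip type. The change in difference between chip types was -0.54 for Dkkl1 (SE 0.51) and -0.64 for Sfrp2 (SE 0.45), with limma interaction adjusted p of 0.93 and 0.924. With chip type as a block, which called 3.62% of all probesets, both genes passed, Dkkl1 at 0.00125 and Sfrp2 at 0.0137 (limma adjusted p).

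Dkk3, the member of the Dickkopf group closest to Dkkl1, was below the minimum on both probesets. Its strain means were 2.68 in CBA and 2.69 in QSi5 mice on 1417312_at, and 3.21 and 3.32 on 1448669_at. The differences of 0.01 and 0.11 had adjusted p-values of 0.99 and 0.796 in the limma fit over all probesets. Of the 9 probesets below the minimum, only 1439373_x_at of Wnt5b had an unadjusted limma p under 0.01 (1.55% of all probesets below the minimum did), and none passed after adjustment.

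**Figure D2:**
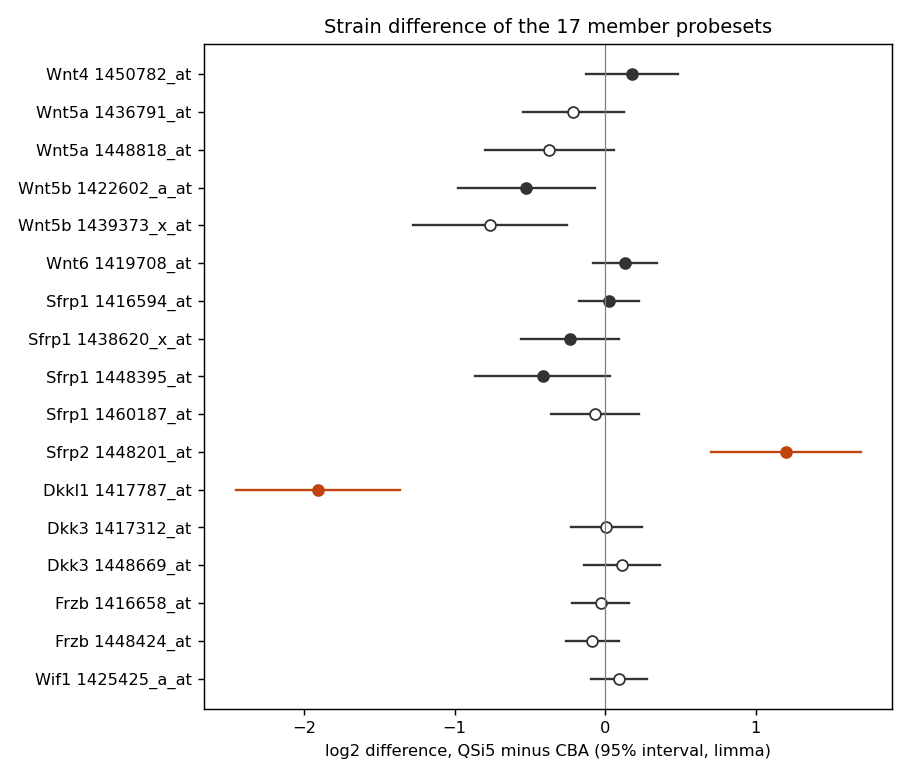
Log2 difference between the strains (horizontal axis, QSi5 minus CBA, with 95% limma intervals over 5 mice per strain) for the 17 probesets of the 10 genes. Filled points are the 8 above the intensity minimum and open points the 9 below it, from the fit over all probesets. Dkkl1 at -1.91 and Sfrp2 at 1.20, in orange, are those called.

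**Figure D3:**
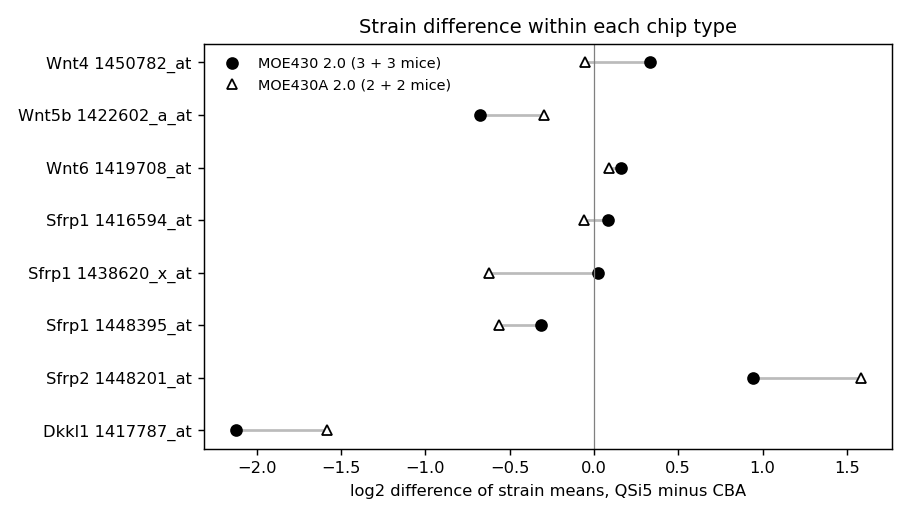
Log2 difference of strain means (horizontal axis, QSi5 minus CBA) within the MOE430 2.0 arrays (filled circles, 3 mice per strain) and within the MOE430A 2.0 arrays (open triangles, 2 mice per strain) for the 8 tested probesets. Dkkl1 and Sfrp2 keep their direction on both chip types, whereas Wnt4, Sfrp1 1416594_at and Sfrp1 1438620_x_at change sign.

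Genes with several probesets allowed the mouse-to-mouse spread to be compared between different probes. After the strain means were removed, 10 pairs of probesets of the same gene were correlated over the 10 mice, with permutation p-values (two-sided, 100000 resamples). The pair of Wnt5a agreed closely, with Pearson r of 0.937 (permutation p = 0.00025, adjusted 0.0025) and Spearman rho of 0.891 (permutation p = 0.00127, adjusted 0.0127). Without CBA replicates 3 and 5, the mice farthest from the median, r was 0.792. Chip type was not removed, and CBA replicates 2 and 3, the highest for Wnt5a, shared MOE430A 2.0, so its part in this r was not tested. The permutations treat all mice as interchangeable, although CBA mice were more spread than QSi5 mice (SD 0.49 against 0.11 on 1448818_at). These p-values may therefore be too small. For Wnt5b r was 0.774 (permutation p = 0.0103, adjusted 0.0517) and rho 0.612 (permutation p = 0.0656, adjusted 0.328), and r was 0.605 without CBA replicates 1 and 3. The 6 pairs of Sfrp1 had r between -0.582 and 0.387 and none passed, with the lowest unadjusted permutation p at 0.0807. This p and the lowest r came from a pair with 1460187_at, which lay below the minimum. The pairs of Dkk3 and Frzb, with r of 0.332 and 0.0537, did not pass either (permutation p = 0.354 and 0.887). Both probesets of each of these 2 genes lay below the minimum, as did those of Wnt5a.

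Levels of other gene groups also differed between the CBA mice that stood high for Wnt5a or Wnt5b. CBA replicate 1, with the highest Wnt5b, had the highest level of 5 involution genes (Socs3, Cebpd, Lcn2, Igfbp5 and Clu, of 9 listed) at 1.56 above the mean of all arrays, with 0.60 and 0.42 in CBA replicates 3 and 2 and values from -0.67 to 0.00 in the other mice. CBA replicate 1 also had the highest level of 7 myoepithelial genes of 10 listed, at 0.65. CBA replicate 3, with the highest Wnt5a, had the lowest of the CBA mice at -0.28, close to -0.25 and -0.22 in CBA replicates 4 and 5. QSi5 mice ranged from -0.70 to 0.52 for these genes. The level of 6 adipocyte genes was highest in CBA replicates 2 and 3, at 0.49 and 0.43, against -0.34 to 0.11 in the other mice. The median difference of the involution genes was -0.66, with 3 of 5 at an unadjusted limma p under 0.05, against 14.9% of all genes, and none after adjustment. The median of the myoepithelial genes was -0.10, with none at either threshold. The part of these groups in the Wnt5b and Wnt5a readings was not tested.

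**Figure D4:**
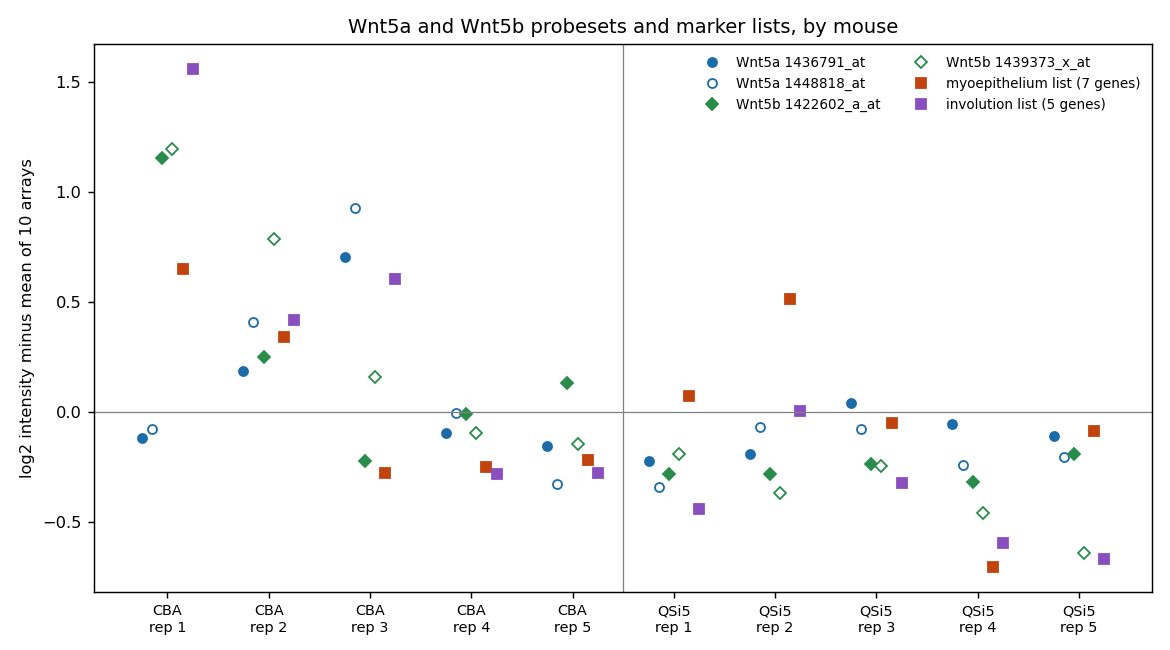
Log2 intensity of both probesets of Wnt5a (blue) and Wnt5b (green), and the mean level of the myoepithelium (orange) and involution (purple) lists, each as the deviation from its mean over the 10 arrays (vertical axis), for each mouse (horizontal axis). CBA replicate 1 has the highest Wnt5b and, at 1.56, the highest involution level, and CBA replicate 3 has the highest Wnt5a.

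The tissue label was borne out by its markers. Milk protein genes such as Csn2, Csn3 and Wap had strain means between 13.85 and 14.20, and the median difference of the 12 secretory epithelial genes was 0.02. Their mean level stood between 0.01 and 0.15 in QSi5 mice and between -0.12 and -0.04 in CBA mice, a gap carried by Xdh and Muc1, called higher by 0.73 each (limma adjusted p = 0.00108 and 0.0212), and by Lalba at 0.40 (limma adjusted p = 0.0845). Of 8 hormone-sensing luminal genes, with which Wnt4 is associated, 6 were named by a single symbol on the arrays. Of these, 2 were tested (Esr1 and Cited1, limma adjusted p = 0.552 and 0.617), and Pgr, the progesterone receptor, was not among those above the minimum. The macrophage list held C1qa, higher in QSi5 mice by 1.22 (limma adjusted p = 0.00913), among 4 tested genes, while C1qb, Adgre1 and Csf1r differed by -0.16, -0.03 and 0.09 and the list median was 0.03. None of 6 adipocyte, 3 endothelial and 2 lymphoid genes tested was called, against 2.7% of all genes. Fabp4 and Cdh5 had an unadjusted limma p of 0.00746 and 0.00951, and QSi5 replicate 4 had the highest lymphoid level at 1.83. Array medians lay between 4.21 and 4.30, and CBA replicate 3 had the lowest mean correlation with its strain, 0.947.

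The rest of the pathway was examined through 124 further genes in 8 lists, each gene standing by its brightest tested probeset. Of these genes 58 were tested and 2 passed, both lower in QSi5 mice, against 2.7% of all 7361 genes (1.39% lower and 1.32% higher). Tnc, an extracellular matrix glycoprotein and Wnt target, differed by -0.82 (SE 0.20, limma adjusted p = 0.0483). Rhoa, the small GTPase of the polarity arm, differed by -0.47 (SE 0.11, limma adjusted p = 0.0457) on 1437628_s_at, which may also detect related transcripts. On its other probeset, 1450632_at, Rhoa differed by -0.14 (limma adjusted p = 0.754). The study named both from these arrays.

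The remaining extracellular genes of the pathway were mostly below the minimum. Of 15 other Wnt ligands 3 were tested, with differences of 0.08 for Wnt1, 0.21 for Wnt3a and 0.00 for Wnt7b. Of 11 other antagonists 10 were named by a single symbol on the arrays and 3 were tested, with 0.13 for Sfrp4, 0.14 for Sfrp5 and 0.17 for Igfbp4. Of 5 R-spondins and other agonists 3 were named by a single symbol on the arrays, and none of these reached the minimum. None of the 6 tested ligands and antagonists had an unadjusted limma p under 0.05, against 14.9% of all genes. Sfrp4 and Sfrp5, the frizzled-related proteins tested outside the set, had adjusted p-values of 0.63 and 0.582 in limma.

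Downstream, 5 of 7 genes of ligand lipidation and release were tested with a median difference of -0.05, and 7 of 23 receptors and co-receptors with a median of -0.07. Among the receptors Fzd4 differed by -0.20 and the co-receptor Lrp6 by -0.04 (limma adjusted p = 0.61 and 0.9). Ryk, a co-receptor for Wnt5a, differed by -0.38 (limma unadjusted p = 0.0103, adjusted p = 0.158). All QSi5 mice lay below all CBA mice for Ryk, where 5.14% of all tested probesets showed no overlap between the strains. The 20 tested mediators, of 25 listed, had a median of -0.01, and the 10 tested targets, of 19 listed, had a median of -0.03. The target genes Ccnd1 and Myc differed by -0.20 and -0.24 (limma adjusted p = 0.803 and 0.408). For comparison, the median over all genes was 0.00.

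Some mediators were called on a probeset other than their brightest. With any probeset counted, 5 of the 58 genes passed, against 3.45% of all genes. A gene with more probesets has more chances to pass in this count. All 5 were also named by the study from these arrays, so the count is not independent of that choice. Smad4, a transcription factor shared with TGF-beta signalling, differed by 2.12 on 1422485_at (limma adjusted p = 2.47e-05) and by 0.39 and 0.28 on its brighter probesets. The CBA mean of 1422485_at, 3.50, lay below the minimum, so that the probeset was tested only through QSi5 mice. Tcf7l1, a TCF factor that mostly represses Wnt targets, differed by -1.37 on 1450117_at (limma adjusted p = 0.00329) and by 0.05 on its brightest. Csnk2a1, a casein kinase 2 subunit, was higher by 1.22 and 0.79 on 2 probesets (limma adjusted p = 0.0084 and 0.00312) and differed by 0.27, 0.02 and -0.15 on the others. The probeset at 0.79, 1419035_s_at, was likewise tested only through QSi5 mice (CBA mean 4.12) and may also detect related transcripts. The probesets of these 3 genes therefore disagreed, the cause was not tested, and all were named by the study from these arrays.

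**Figure D5:**
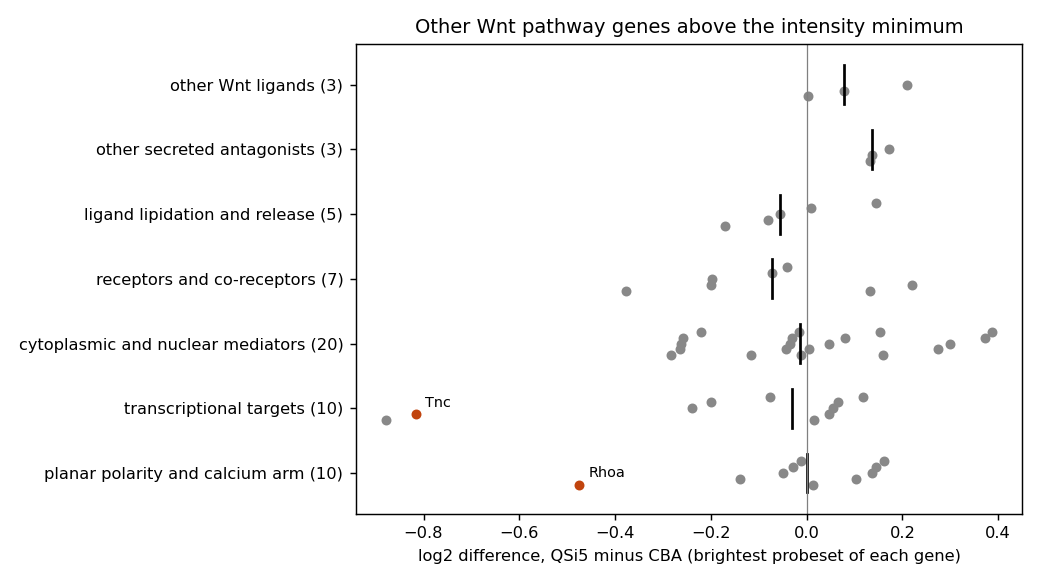
Log2 difference between the strains (horizontal axis, QSi5 minus CBA) for the 58 tested pathway genes on their brightest probeset, in 7 lists with the number tested in brackets. Black bars mark list medians, which lie between -0.07 and 0.14, and the 2 called genes, Tnc and Rhoa, are orange and named.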

How the data were processed

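Mammary gland RNA of 10 mice was measured on Affymetrix arrays, and groups were the strains in the sample records. The log2 values deposited by the authors came from RMA (affy package; background correction, quantile normalization and probe summary), with both chip types normalized together on 22690 shared probesets. RMA compresses differences near background and gives no detection call. Versions are not given in the sources used here, and 0 columns of other series were present. Of 22626 probesets other than controls, 20380 carried 1 symbol, 691 several and 1555 are unnamed here. Following the methods, probesets with an unlogged strain mean (2 to the power of the mean log2 value) above 20 were compared between strains in R 4.3.3 with lmFit and eBayes of limma 3.58.1 (two-sided, no covariates) and Benjamini-Hochberg adjustment. A fit without the minimum served dim probesets. The number of arrays limits the precision, and the scripts were tested on simulated data. Whether mice shared litters or cages is not given.

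Members, lists and tests were chosen with earlier results of these data known, and several listed genes (Smad4, Csnk2a1, Csnk1a1, Nlk, Tcf7l1, Camk2b, Rhoa, Tnc) were named by the study from these arrays. Named genes are all members, up to 4 called genes per list, called or dim markers, the nearest tested neighbours of called members (up to 2 on either side) and the 5 genes most correlated with each. Other list genes named (such as Fzd4, Ryk, Myc and the milk genes) were picked after their values were seen. Replicate numbers of the labels did not pair the mice, with correlations of deviations from -0.37 to 0.292 between same-numbered mice. Alternatives changed the minimum, normalization, chip type, replicate block, variance model, test and probesets, and left out each mouse in turn. A minimum on the mean of unlogged values was added after seeing the data.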

Additional observations from a re-analysis of the deposited data

Results flagged for a closer look

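Among 34 groups of 5 mice (17 probesets in 2 strains), a single mouse stood apart from its strain by Dixon's criterion in 2, and chance gives about 5% of groups. On Sfrp1 1448395_at, QSi5 replicate 4 read 5.755 while the other QSi5 mice read 6.25 to 6.40, so that the gap was 0.766 of the strain's range. On Dkk3 1448669_at, which lay below the intensity minimum, QSi5 replicate 2 read 3.14 while the other QSi5 mice read 3.33 to 3.38, with a gap of 0.777 of the range.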

How the results depend on the processing

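Under 23 alternatives, Dkkl1 passed in 22 (adjusted p from 0.000136 to 0.256 in limma or with ordinary variances, difference -2.13 to -1.58) and Sfrp2 in 21 (adjusted p from 0.000412 to 0.294, difference 0.94 to 1.58). The number of member probesets called was 1 on the MOE430 2.0 arrays alone (Dkkl1), 1 on the MOE430A 2.0 arrays alone (Sfrp2, limma adjusted p = 0.043) and 1 with ordinary in place of limma's moderated variances (a Student's test, which the methods use for data other than the arrays; Dkkl1, since Sfrp2 had an adjusted p of 0.0783), and 2 (from 2 to 2) when each mouse was left out. Over all probesets the count of 336 became 146, 65 and 205 (1.8%) under the same 3 settings and lay between 215 (without QSi5 replicate 3) and 415 (without CBA replicate 4) when each mouse was left out, with 221 without QSi5 replicate 5. With a replicate block 260 probesets (2.28%) were called, 2 of them members (Dkkl1 and Sfrp2, limma adjusted p = 0.000597 and 0.0379), and the replicate numbers did not pair the mice. Among the 8 tested probesets, signs turned, in no case with a call, for Wnt4 (-0.05 on the MOE430A 2.0 arrays alone, where it lay under the minimum) and for Sfrp1 1416594_at (-0.058 on the MOE430A 2.0 arrays alone, and -0.0089 without QSi5 replicate 3, within -0.0089 to 0.0643 when each mouse was left out) and 1438620_x_at (0.024 on the MOE430 2.0 arrays alone); the cause was not tested. Wnt4, Wnt5b and Wnt6 passed under none of the alternatives in which they were tested, with lowest limma adjusted p of 0.429, 0.139 and 0.43. Dim probesets limit what can be said of Wnt5a, Dkk3, Frzb and Wif1, which had no probeset above the minimum.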

Other observations

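The genes that followed Dkkl1 and Sfrp2 most closely between mice of the same strain were listed as a description, after strain means were removed, over 10 arrays and with no test because they are the highest of all genes. For Sfrp2 they were Camsap1 (Pearson r 0.937, Spearman rho 0.976), Bbip1 (0.924 and 0.842), Zbtb7c (0.923 and 0.818), Cnpy3 (0.903 and 0.709) and Lrrc26 (0.898 and 0.879). Without the 2 mice farthest from the median, r for these genes lay between 0.667 (Cnpy3) and 0.95 (Zbtb7c). For Dkkl1 they were Setdb1 (Pearson r 0.917, Spearman rho 0.83), Mrps33 (0.914 and 0.952), Ndufa4 (0.899 and 0.879), Psmd6 (0.897 and 0.915) and S100a1 (0.886 and 0.891), with r between 0.774 (Psmd6) and 0.905 (Setdb1) without the 2 farthest mice. All these points share arrays and normalization.

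The nearest tested genes on either side of the called members, by RefSeq order, did not pass the test. Most were not directly adjacent. Up to 7 protein-coding genes lay in between (7 for Lin7b, 4 for Pih1d1 and 6 for Lrat), and those not named here were not tested. Around Sfrp2 the differences were -0.74 for Lrat, -0.04 for Plrg1, -0.31 for Tlr2 and -0.28 for Tmem131l (limma adjusted p from 0.286 to 0.923). Around Dkkl1 they were -0.10 for Pih1d1, 0.05 for Pth2, 0.35 for Cd37 and 0.09 for Lin7b (limma adjusted p from 0.633 to 0.873). Of these 8 genes only Lrat had an unadjusted limma p under 0.05, at 0.0357.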
